A study of Mus musculus with 48 samples.

Results

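The genes followed here are 10 of the 47643 gene identifiers in the deposited count files, taken by name: sensors of foreign or misplaced DNA and RNA, the adaptor and kinase they signal through, and enzymes that clear or edit nucleic acids. The list was chosen by function and by no measured value, although earlier results of these data were known when it was drawn up. Of the 10, 9 had counts and passed the filter on low counts in each fit. Trex1 had no count in any of the 48 libraries. The names and identifiers are Ifi204 (ENSMUSG00000073489), Zbp1 (ENSMUSG00000027514), Tlr3 (ENSMUSG00000031639), Ifih1 (ENSMUSG00000026896), Dhx58 (ENSMUSG00000017830), Mavs (ENSMUSG00000037523), Tbk1 (ENSMUSG00000020115), Samhd1 (ENSMUSG00000027639), Trex1 (ENSMUSG00000049734) and Adar (ENSMUSG00000027951).

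Messenger RNA was measured in organoids, small structures grown in a gel from submandibular salivary gland cells of C57BL/6 mice aged 8 to 12 weeks. On day 5 of culture the organoids received protons or photons, of a source the labels do not give, at 4, 7 or 15 Gy, the gray being the unit of absorbed dose, or were left unirradiated. They were collected 6 or 2 days after irradiation. This gave 16 groups of 3 libraries, with 1 library per mouse within a group. Groups were protons at 4, 7 and 15 Gy and photons at 4, 7 and 15 Gy, each at day 6 and day 2. Each radiation type and day had a separate unirradiated control. Per the titles, mice 1 to 3 recur in every group, so libraries of different groups share mice. Whether the protons and photons were given to organoids of the same mice is not stated. Protons and photons were given on different days, so levels are read only against the matching control. All groups, controls included, grew in the same medium with Wnt3a, R-spondin1, EGF, FGF2, insulin, the kinase inhibitor Y27632 and dexamethasone, a glucocorticoid. The libraries read the 3' ends of polyadenylated RNA, so 1 count stands for 1 transcript end whatever the transcript's length.

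Cells detect nucleic acids in places where they should be scarce. Ifih1 (MDA5) binds long double-stranded RNA in the cytosol and signals through Mavs, an adaptor on mitochondria, to the kinase Tbk1, which activates the transcription factor Irf3 and so the genes of type I interferons. Secreted interferons act on receptors of the same and neighbouring cells and raise a broad set of interferon-stimulated genes, among which many of the sensors themselves are counted. Tlr3 senses double-stranded RNA in endosomes, and Dhx58 (LGP2) is a helicase that modulates RNA sensing. Ifi204 is a mouse protein of the PYHIN family that binds DNA, and Zbp1 binds nucleic acids in the left-handed Z form and can start programmed cell death. Samhd1 breaks down deoxynucleotides, Trex1 degrades DNA in the cytosol, and Adar edits adenosine to inosine in double-stranded RNA, which keeps a cell's own RNA from being sensed.

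Interferon-regulatory and STAT factors are known to bind promoter elements built of short runs of adenines and guanines. RefSeq promoter windows, of 250 bases before and 50 bases after a gene's start on build GRCm38.p6, were matched by symbol for 7 of the 10 genes, with 10 windows in all. The motif AANNGAAA, on either strand, was in 3 of these 10 windows, 1 each of Ifih1, Adar and Tlr3, against 23.9% of all 32851 mouse windows, so the share is near that of all windows. The matches are shown for their place beside the start. Capitals mark the motif on the gene's strand; in Ifih1 they cover a pair of overlapping matches.
Ifih1, chr2:62646209-62646238, minus strand, 28 bases after the start: ctggagaagagAATCGAAACAGAAAccgat
Adar, chr3:89730736-89730765, plus strand, 29 bases after the start: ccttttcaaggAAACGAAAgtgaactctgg
Tlr3, chr8:45410421-45410450, minus strand, 59 bases before the start: aagtgaatggcTTTCACTTtgtttagacac
In Tlr3 the match reads on the opposite strand. The windows of Mavs, Tbk1, Samhd1 and Trex1 did not hold the motif. These matches are letters in a window and do not show that a factor binds there.

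Gene counts ran from 314409 to 4745719 per library. The lowest total was that of mouse 3 at 4 Gy of photons, day 6, and the next lowest was 1311666. Genes of salivary epithelium, with Epcam, Krt5 and Krt14 in all 48 libraries, summed to 7330 to 20047 counts per 1000000 gene counts of a library (CPM). Aqp5, a marker of saliva-secreting acinar cells, lay between 0.310 and 22.7 CPM, and Bhlha15, another, had 15 counts in all. Of 31 immune cell markers, 11 had no count anywhere and Ptprc, which marks all white blood cells, had 7 counts over the 48 libraries; the list's summed level of 38.2 to 871 CPM came mostly from S100a8 and S100a9, which epithelia also express. Endothelial markers summed to at most 2.73 CPM and fibroblast markers to at most 35.9 CPM.

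Irradiated organoids held more RNA of the sensors than their controls, at both days and with both radiation types, while the adaptor and the kinase stood near their control levels in most comparisons. At 15 Gy 8 of the 9 measured genes rose after protons at day 6, and 6 of 9 rose after protons at day 2, photons at day 6 and photons at day 2. Over all genes tested, 11.0%, 3.94%, 2.52% and 2.57% were called higher in these comparisons. Those that rose in all of them were Ifi204, Zbp1, Tlr3, Ifih1, Dhx58 and Adar; the further genes after protons at day 6 were Mavs and Samhd1. None of the 9 fell in any of the 12 comparisons of a dose with its control. Over these 12 comparisons 66 of 108 tests called a gene higher, and 50 of the 66 calls held in each fit with 1 library left out. At 15 Gy the 3 irradiated libraries lay above all 3 controls in CPM for 9, 6, 7 and 6 of the 9 genes in the same order of sets, as they did for 26.1%, 17.5%, 12.9% and 10.4% of all genes tested. Such ranges leave out the further scaling of libraries (TMM) that the fits used, in which a higher factor lowers a level. After protons at day 6 the factors were 0.895 to 0.946 in controls and 1.01 to 1.045 at 15 Gy. In whole organoids, more cells that express a gene and more RNA of it per cell cannot be told apart.

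At 7 Gy, 8 genes rose after protons at day 6, 5 after protons at day 2, 6 after photons at day 6 and 6 after photons at day 2, against 5.49%, 1.62%, 1.49% and 1.56% of all genes called higher. At 4 Gy the counts were 5, 3, 5 and 2 genes, against 1.13%, 0.703%, 0.937% and 0.534% of all genes. The median log2 fold change of the 9 genes at 15 Gy was 1.77 after protons at day 6, 1.19 after protons at day 2, 1.52 after photons at day 6 and 1.52 after photons at day 2. The median over all genes tested was -0.02, 0.00, 0.00 and -0.03 in these comparisons.

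**Figure D1:**
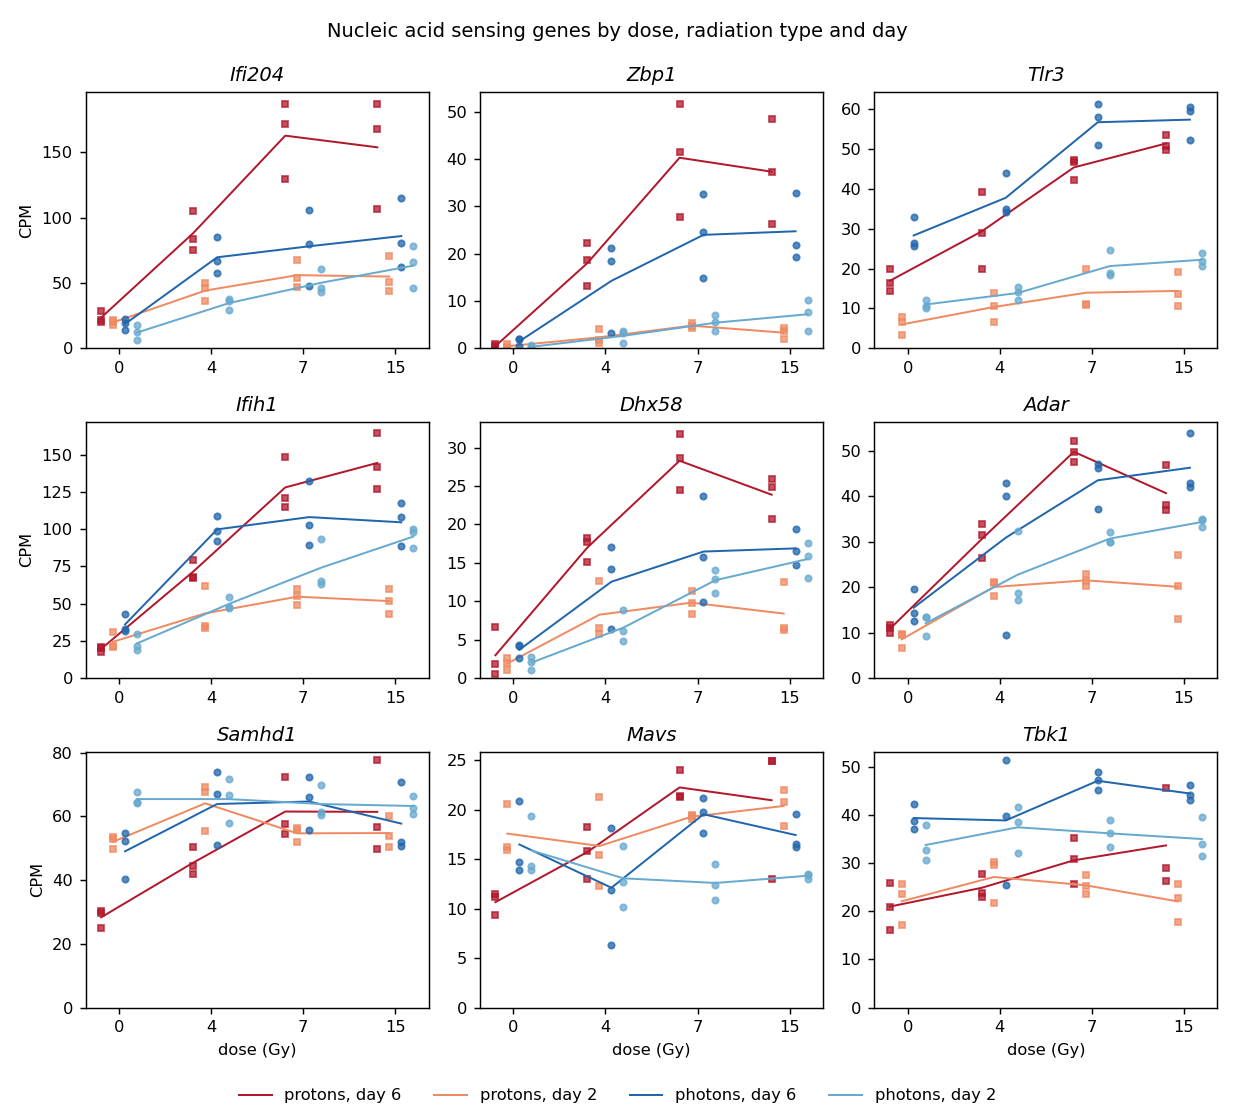
Level in CPM (vertical axes, linear, a scale for each gene) of the 9 genes with counts, by dose (horizontal axes, evenly spaced). Points are libraries, 3 per dose; lines join the group means of protons at day 6, protons at day 2, photons at day 6 and photons at day 2. In the upper panels irradiated libraries lie mostly above the controls at 0 Gy, whereas Mavs and Tbk1 show overlapping points in most groups.

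Among the DNA sensors, Ifi204 rose in all 12 comparisons. After protons at day 6 it had 21.4, 28.7 and 20.4 CPM in controls, 83.9, 75.4 and 105 CPM at 4 Gy, 187, 172 and 129 CPM at 7 Gy, and 187, 168 and 107 CPM at 15 Gy. The 3 libraries of each dose lay above all 3 controls. The log2 fold change at 15 Gy was 2.56 ± 0.22 (SE, adjusted p = 2.1e-07).

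In the set of protons at day 2, Ifi204 had 50.4, 70.3 and 44 CPM at 15 Gy, against 21.7, 20.1 and 17.8 CPM in controls. At day 6 after photons it had 80.7, 115 and 62 CPM at 15 Gy, against 19.4, 14.3 and 22.3 CPM in controls. At day 2 after photons it had 65.9, 45.9 and 77.9 CPM at 15 Gy, against 12.2, 18 and 6.03 CPM in controls. In none of these sets did an irradiated library fall into the range of the controls. The log2 fold changes were 1.42 ± 0.20 (adjusted p = 0.00023), 2.17 ± 0.28 (adjusted p = 0.00027) and 2.35 ± 0.29 (SE, adjusted p = 0.00023). At 4 Gy the change ran from 1.09 after protons at day 2 to 1.93 after photons at day 6. The call at 4 Gy after photons at day 2 (1.41, adjusted p = 0.0463) was not kept with mice as blocks (adjusted p = 0.0839), and it was lost without any 1 of 10 of the 12 libraries, all but mouse 2 of the control and mouse 2 of 15 Gy, with an adjusted p of up to 0.203. That after protons at day 2 (adjusted p = 0.00984) was lost without control mouse 2, control mouse 3 or mouse 1 at 4 Gy, with an adjusted p of up to 0.0743.

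Zbp1 was at the edge of detection in controls and rose in 10 of the 12 comparisons, up to 51.5 CPM in a library of protons at day 6. In proton controls at day 6 it had 2, 1 and 0 counts; at 4 Gy it had 33, 56 and 94 counts, at 7 Gy 142, 133 and 116, and at 15 Gy 120, 136 and 76. No irradiated library came near a control. The 332 counts at 15 Gy stood against 3 in controls, a depth-corrected ratio of 67.6 with a 95% interval of 22.9 to 329 that covers counting error only. The fitted log2 fold change of 5.97 ± 0.53 (SE, adjusted p = 3.5e-07) rests on those 3 counts and depends on the prior count of the fit.

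At day 6 after photons, Zbp1 had 19.4, 32.9 and 21.9 CPM at 15 Gy, against 2.01, 0.421 and 2.02 CPM in controls, whose counts were 9, 1 and 7. All 3 irradiated libraries were above all 3 controls, with a log2 fold change of 3.90 ± 0.43 (SE, adjusted p = 7.6e-05). At day 2 levels were lower in all groups. After photons at day 2 it had 30, 13 and 22 counts at 15 Gy, against 2, 1 and 0 in controls, a ratio of 19.4 (95% interval 6.36 to 96.6). The set of protons at day 2 had 6, 11 and 11 counts at 15 Gy, against 1, 0 and 2 in controls, a ratio of 7.53 (95% interval 2.33 to 38.7). Both passed the test, with adjusted p = 0.00364 after photons and 0.0202 after protons. The ratios at 4 Gy and day 2, 7.02 after photons and 5.59 after protons, did not pass (adjusted p = 0.259 and 0.198); with no filter that after photons passed (adjusted p = 0.0151). Of the day 2 calls, that at 15 Gy of protons was lost without control mouse 1, control mouse 2 or mouse 2 or 3 at 15 Gy (adjusted p up to 0.093). That at 7 Gy of protons was lost without control mouse 1 or 2 (adjusted p up to 0.0709), and that at 7 Gy of photons without control mouse 2 or mouse 1 or 2 at 7 Gy (adjusted p up to 0.0662).

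Among the RNA sensors, Ifih1 rose in 11 of the 12 comparisons. Proton controls at day 6 had 20, 17.7 and 20.9 CPM, with 68, 67.1 and 79.1 CPM at 4 Gy, 148, 121 and 115 CPM at 7 Gy, and 141, 165 and 127 CPM at 15 Gy. Each dose lay far above the controls, and the 15 Gy libraries lay above those at 4 Gy. The log2 fold change at 15 Gy was 2.72 ± 0.16 (SE, adjusted p = 1.7e-09).

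At day 2 after protons, Ifih1 had 43.3, 59.8 and 51.8 CPM at 15 Gy, against 21.7, 30.6 and 20.7 CPM in controls. At day 6 after photons it had 88.5, 117 and 108 CPM at 15 Gy, against 43.1, 33.2 and 31.5 CPM in controls. At day 2 after photons it had 97.7, 87.3 and 99.8 CPM at 15 Gy, against 29.3, 19 and 21.4 CPM in controls. The ranges did not overlap in any set. The log2 fold changes were 1.04 ± 0.22 (adjusted p = 0.00633), 1.52 ± 0.17 (adjusted p = 8.9e-05) and 2.03 ± 0.18 (SE, adjusted p = 1.7e-05). The comparison it did not pass was 4 Gy of protons at day 2 (log2 fold change 0.79, adjusted p = 0.131), which passed with mice as blocks (0.76, adjusted p = 0.025) and with no filter (0.79, adjusted p = 0.00736). The call at 4 Gy of photons, day 2 (1.02, adjusted p = 0.0209) was lost without control mouse 2 or without mouse 1 or 3 at 4 Gy (adjusted p up to 0.128), and that at 7 Gy of protons, day 2, without control mouse 1 or 3 (adjusted p up to 0.0587).

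Dhx58 was scarce in controls and rose in 11 of the 12 comparisons. Proton controls at day 6 had 1.78, 6.62 and 0.498 CPM, with 15.1, 17.7 and 18.2 CPM at 4 Gy, 28.7, 31.8 and 24.4 CPM at 7 Gy, and 20.8, 24.9 and 25.9 CPM at 15 Gy. Control mouse 2 was the highest of the controls and still below each irradiated library. The log2 fold change was 2.91 ± 0.39 at 15 Gy (SE, adjusted p = 4.4e-05).

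In the other sets, Dhx58 at 15 Gy averaged 8.40 ± 3.54 CPM after protons at day 2, against 1.89 ± 0.774 CPM in controls (SD, n = 3 each). After photons it averaged 16.9 ± 2.35 CPM at day 6, against 3.68 ± 0.937 CPM in controls, and 15.5 ± 2.30 CPM at day 2, against 1.99 ± 0.873 CPM in controls (SD, n = 3 each). All irradiated libraries were above their controls in these 3 sets. The log2 fold changes were 2.13 ± 0.45 (adjusted p = 0.00586), 2.18 ± 0.33 (adjusted p = 0.00103) and 2.98 ± 0.34 (SE, adjusted p = 0.00011). At 4 Gy of photons, day 2, it did not pass (1.67, adjusted p = 0.0693), and it did with DESeq2 (adjusted p = 0.0308), with no filter on low counts (adjusted p = 0.00491) and without control mouse 3 (adjusted p = 0.0443). The calls at 4 Gy were lost without mouse 2 at 4 Gy for photons at day 6 (adjusted p = 0.125), and without any control or mouse 2 at 4 Gy for protons at day 2 (adjusted p up to 0.172).

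Tlr3, the endosomal sensor, changed less and differed between the days in unirradiated organoids. It rose at 7 and 15 Gy in 3 of the 4 sets, and at 15 Gy in the set of protons at day 2. At day 6 after protons it had 50.9, 53.5 and 49.8 CPM at 15 Gy, against 16.5, 14.3 and 19.9 CPM in controls. At day 6 after photons it had 52.2, 59.4 and 60.4 CPM at 15 Gy, against 26.4, 32.8 and 25.7 CPM in controls. The groups were apart at both radiation types, with log2 fold changes of 1.44 ± 0.21 (adjusted p = 8.5e-05) after protons and 1.02 ± 0.15 (SE, adjusted p = 0.000605) after photons.

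At day 2, Tlr3 had 13.6, 19.1 and 10.5 CPM at 15 Gy of protons, against 7.95, 6.57 and 3.45 CPM in controls. After photons at day 2 it had 22, 20.7 and 24 CPM at 15 Gy, against 12.2, 10.6 and 10.2 CPM in controls. The groups did not overlap, and the log2 fold changes were 1.19 ± 0.34 (adjusted p = 0.0390) and 1.01 ± 0.19 (SE, adjusted p = 0.00583). At 4 Gy it did not pass in any set, with values between 0.25 and 0.72 on the log2 scale; after protons at day 6 that value of 0.70 passed with no filter (0.75, adjusted p = 0.0371) and without mouse 1 at 4 Gy (adjusted p = 0.0256). At 7 Gy of protons, day 2, it did not pass (1.1, adjusted p = 0.130), and passed with mice as blocks (1.19, adjusted p = 0.0288) and with no filter (1.08, adjusted p = 0.028). The call at 15 Gy of protons, day 2, was lost without control mouse 2 or 3 or mouse 1 or 2 at 15 Gy (adjusted p up to 0.192). That at 7 Gy of photons, day 2 (0.84, adjusted p = 0.0262), was lost without control mouse 2 or mouse 1 or 2 at 7 Gy (adjusted p up to 0.127).

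Mavs, the adaptor of the RNA sensors, stood at 6.36 to 24.9 CPM over the 48 libraries. After protons at day 6 it had 13, 24.9 and 24.9 CPM at 15 Gy, against 11.1, 9.38 and 11.5 CPM in controls. At 7 Gy it had 21.4, 24 and 21.3 CPM. It rose at both doses, by 0.81 ± 0.26 at 15 Gy (adjusted p = 0.0314) and 0.86 ± 0.26 at 7 Gy (SE, adjusted p = 0.0354) on the log2 scale, and mouse 1 at 15 Gy lay just above the controls. In the other 3 sets it did not pass at any dose. At 15 Gy its log2 fold change was 0.18 after protons at day 2 (95% interval -0.22 to 0.59), 0.06 after photons at day 6 (-0.34 to 0.46) and -0.26 after photons at day 2 (-0.71 to 0.19). After photons at day 2 the 3 libraries at 15 Gy, with 13.5, 13 and 13.4 CPM, lay just below the controls at 14.3, 19.4 and 13.9 CPM, as was the case for 9.94% of all genes tested. The TMM factors of mouse 1 were 1.078 in the control and 0.916 at 15 Gy, so the order of its libraries depends on the scaling.

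The Mavs call at 7 Gy of protons, day 6, was lost with mice as blocks (adjusted p = 0.0555) and without any 1 of the 3 controls or of the 3 libraries at 7 Gy (adjusted p up to 0.137). That at 15 Gy was lost without control mouse 2 or 3 or mouse 2 or 3 at 15 Gy (adjusted p up to 0.114).

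Tbk1, the kinase below Mavs, did not pass the test in any of the 12 comparisons. Its largest value was after 15 Gy of protons at day 6, with 45.6, 26.4 and 29 CPM at 15 Gy, against 16, 25.9 and 20.9 CPM in controls. Mouse 1 was high, and mouse 2 and mouse 3 lay just above the highest control in CPM. The TMM factors were 1.045 for mouse 2 at 15 Gy and 0.936 for control mouse 2, so the order of these libraries depends on the scaling. The log2 fold change was 0.55 ± 0.22 (SE, adjusted p = 0.0826). That value passed at 0.70 with scaling by library size alone (adjusted p = 0.0349), at 0.61 with no filter on low counts (adjusted p = 0.0403), and without mouse 2 at 15 Gy (adjusted p = 0.0349). At 15 Gy in the other sets it was -0.04 (95% interval -0.43 to 0.34) after protons at day 2, 0.16 (-0.11 to 0.43) after photons at day 6 and 0.05 (-0.25 to 0.34) after photons at day 2.

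Among the genes that clear or edit nucleic acids, Adar rose in 11 of the 12 comparisons. Proton controls at day 6 had 9.80, 11.6 and 11 CPM, with 31.4, 26.4 and 33.9 CPM at 4 Gy, 47.5, 52.1 and 49.6 CPM at 7 Gy, and 46.8, 38.1 and 37 CPM at 15 Gy. All irradiated libraries were above the controls, and the 7 Gy libraries were above those at 15 Gy in CPM. The nearest were those of mouse 1, at 47.5 and 46.8 CPM. Their TMM factors were 1.051 at 7 Gy and 1.032 at 15 Gy, so the order of these libraries depends on the scaling. A difference between 7 and 15 Gy was not tested. The log2 fold change was 2.02 ± 0.18 at 7 Gy (adjusted p = 3.4e-07) and 1.77 ± 0.18 at 15 Gy (SE, adjusted p = 2.0e-06).

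At day 2 after protons, Adar had 13, 26.9 and 20.3 CPM at 15 Gy, against 6.50, 9.63 and 9.37 CPM in controls. At day 6 after photons it had 41.9, 53.9 and 42.8 CPM at 15 Gy, against 19.7, 14.3 and 12.4 CPM in controls. At day 2 after photons it had 34.8, 33.2 and 34.9 CPM at 15 Gy, against 13.4, 9.16 and 13.5 CPM in controls. None of these pairs of groups overlapped. The log2 fold changes were 1.21 ± 0.25 (adjusted p = 0.00471), 1.55 ± 0.21 (adjusted p = 0.00047) and 1.52 ± 0.24 (SE, adjusted p = 0.00172). At 4 Gy of photons, day 2, it did not pass (0.84, adjusted p = 0.205), and with no filter it did (0.86, adjusted p = 0.0367). In the shallow library of mouse 3 at 4 Gy of photons, day 6, Adar stood at 9.54 CPM, below the controls; without that library the log2 fold change there was 1.34 (adjusted p = 0.00063), against 1.26 (adjusted p = 0.0103) with it, and without mouse 1 or 2 the call was lost (adjusted p up to 0.163). The call at 4 Gy of protons, day 2, was lost without any control or mouse 1 at 4 Gy (adjusted p up to 0.153), and that at 7 Gy of photons, day 2, without control mouse 2 (adjusted p = 0.0533).

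Samhd1 passed the test after protons at day 6, at the higher doses, and did not pass in the other sets. It had 30.3, 29.8 and 24.9 CPM in controls of that set, 41.8, 44.4 and 50.2 CPM at 4 Gy, 72.2, 54.6 and 57.7 CPM at 7 Gy, and 56.7, 77.7 and 49.8 CPM at 15 Gy. The libraries of each dose lay above the controls. It rose at 7 Gy (log2 fold change 0.92 ± 0.18, adjusted p = 0.00265) and at 15 Gy (0.96 ± 0.18, SE, adjusted p = 0.00112), and the value of 0.57 at 4 Gy did not pass (adjusted p = 0.171). At 15 Gy in the other sets its log2 fold change was 0.04 (95% interval -0.23 to 0.31) after protons at day 2, 0.22 (-0.09 to 0.54) after photons at day 6 and -0.05 (-0.33 to 0.22) after photons at day 2. Controls of protons at day 6 had the lowest Samhd1 of the 4 control groups, at 28.3 ± 2.97 CPM, against 49 to 65.4 CPM on average in the other 3.

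Trex1 was at 0 in each library. A count of 0 allows up to 3 counts, or 0.632 CPM in the deepest library and 9.54 CPM in the shallowest. In the GENCODE M21 annotation of build GRCm38, 100% of its 1147 exon bases also lie in exons of Atrip on the same strand, and Atrip itself had 12 counts over the 48 libraries. Reads that a counter could give to more than 1 gene made up 0.380 to 0.564% of a library, so the 0 does not show that Trex1 was not transcribed. On the opposite strand, Adar shares 16.8% of its exon bases with Chrnb2, Tlr3 7.32% with Gm45542 and Dhx58 4.31% with Dhx58os. The strand setting of the counting is not given in the sources used here. Chrnb2 had 62 counts and Dhx58os 3 counts over all libraries.

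**Figure D2:**
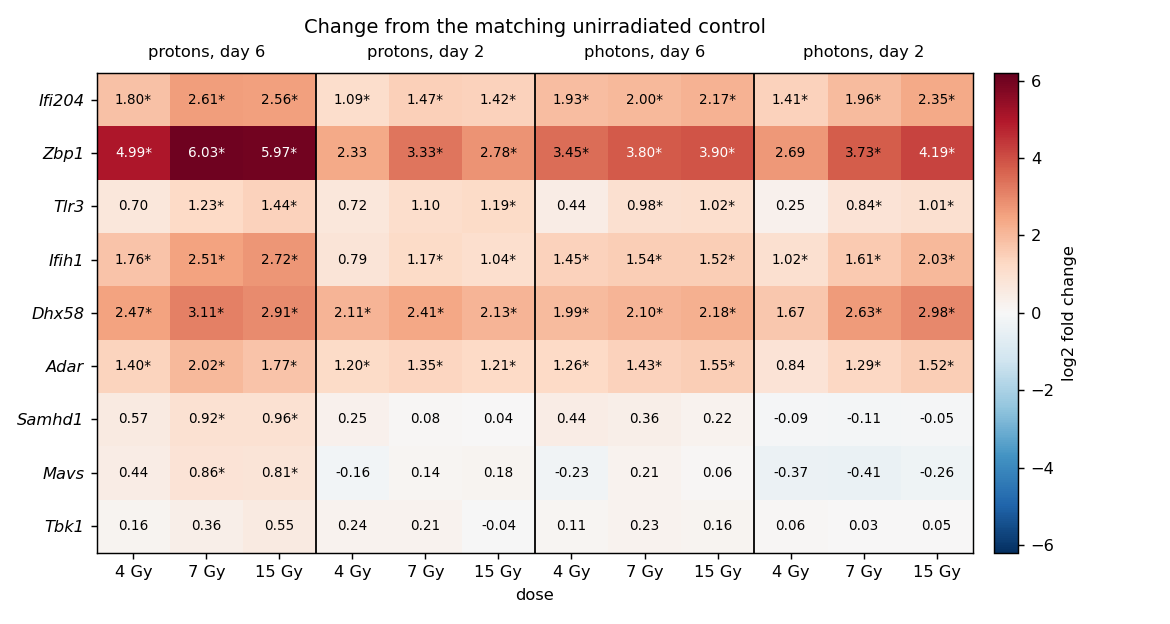
Log2 fold change against the matching unirradiated control for the 9 genes with counts (rows) at 3 doses in 4 sets (columns). Colour shows the value printed in each cell, red for higher in irradiated organoids, and an asterisk marks an adjusted p under 0.05; the Zbp1 values of protons at both days and photons at day 2 rest on 3 control counts per set.

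Whether the change grew with dose was tested by 15 Gy against 4 Gy. With protons at day 6, 4 of the 9 genes were higher at 15 Gy, against 2.63% of all genes: Ifih1 by 0.97 ± 0.13 (adjusted p = 0.00099), Zbp1 by 0.98 ± 0.26 (adjusted p = 0.0318), Ifi204 by 0.76 ± 0.18 (adjusted p = 0.0229) and Tlr3 by 0.74 ± 0.18 (SE, adjusted p = 0.0232) on the log2 scale. Dhx58 (0.44, adjusted p = 0.339) and Adar (0.37, adjusted p = 0.141) did not pass. After photons at day 2, Ifih1 was higher at 15 Gy by 1.02 ± 0.17 (SE, adjusted p = 0.0262), against 0.236% of all genes called higher. None of the 9 passed after protons at day 2 or photons at day 6, where 0.057% and 0.0% of all genes were called higher; at an unadjusted p under 0.05 the counts were 0 and 1 of the 9 genes by edgeR, against 1027 of 10529 and 951 of 11308 genes, and DESeq2 called none of the 9.

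Of the proton day 6 calls between doses, those of Ifi204 and Tlr3 were lost without mouse 1 or mouse 2 at 4 Gy (adjusted p up to 0.101 and 0.0888). That of Zbp1 was lost without any library at 4 Gy or mouse 2 at 15 Gy (adjusted p up to 0.121), and with mice as blocks (0.93, adjusted p = 0.0519). Without mouse 1 at 15 Gy, Mavs passed as well (adjusted p = 0.0405). The photon day 2 call of Ifih1 was lost without any library at 4 Gy, mouse 2 at 7 Gy, or mouse 1 or 3 at 15 Gy (adjusted p up to 0.192), and with library size alone (adjusted p = 0.0839). Dhx58 passed there without control mouse 3 (adjusted p = 0.0236), with DESeq2 (adjusted p = 0.0114) and with no filter (adjusted p = 0.000978), as did Ifi204 (adjusted p = 0.000538) and Zbp1 (adjusted p = 0.0122) with no filter.

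Whether protons and photons differed was tested as the difference between their changes from control at 15 Gy. At day 6 the change of Ifih1 was larger after protons by 1.26 ± 0.25 on the log2 scale (SE, adjusted p = 0.00929), where 2.56% of all genes were called higher. Samhd1 (0.78 ± 0.25, adjusted p = 0.0704) and Mavs (0.79 ± 0.34, adjusted p = 0.164) did not pass, and Zbp1 had 2.13 ± 1.09 (SE, adjusted p = 0.261). Without photon control mouse 1 the Ifih1 call was lost (adjusted p = 0.0501). Samhd1 passed without photon control mouse 3 or without proton mouse 1 at 15 Gy (adjusted p as low as 0.0302), and Mavs passed without the last of these (adjusted p = 0.0244). At day 2 none of the 9 genes passed and 0.0% of all genes were called; the values of Ifih1 and Ifi204 were -0.97 ± 0.30 and -0.91 ± 0.36 (SE). At an unadjusted p under 0.05 the counts at day 2 were 2 of the 9 genes and 571 of 11116 genes, and DESeq2 called 4 genes over the whole table. Radiation type and day of irradiation cannot be told apart in this design, beyond what the separate controls remove.

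Whether the change differed between the days was tested in the same way. For protons, the change at 15 Gy was larger at day 6 than at day 2 for Ifih1 by 1.69 ± 0.29 (adjusted p = 0.00177), for Ifi204 by 1.15 ± 0.32 (adjusted p = 0.0465) and for Samhd1 by 0.92 ± 0.23 (SE, adjusted p = 0.0304), against 1.05% of all genes. The Ifih1 call held with each library of the compared groups left out. That of Ifi204 held in 2 of 12 such fits, those without mouse 2 at 15 Gy of day 2 and without mouse 3 at 15 Gy of day 6, with an adjusted p of up to 0.114. That of Samhd1 held in 4 of 12, those without control mouse 1 of either day and without mouse 1 or 3 at 15 Gy of day 6, with an adjusted p of up to 0.0862. For photons none of the 9 passed, where 0.0173% of all genes were called higher, and at an unadjusted p under 0.05 the count was 0, against 919 of 11578 genes, and DESeq2 called none of the 9; their values ran from -0.79 for Dhx58 to 0.33 for Mavs.

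**Figure D3:**
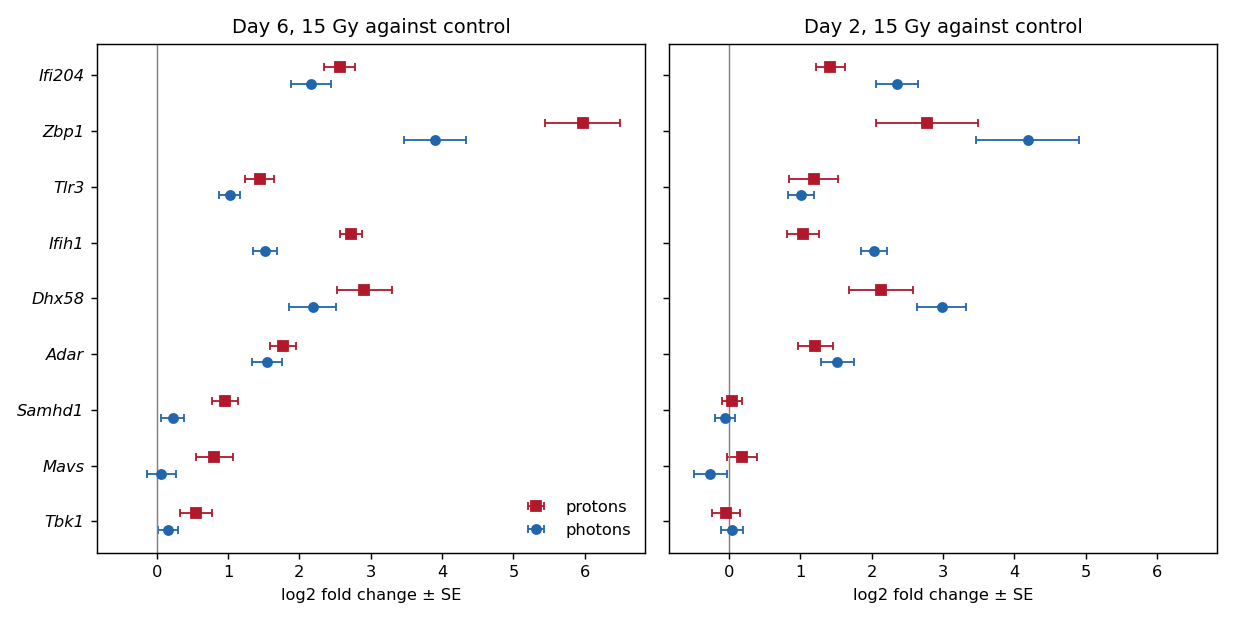
Log2 fold change at 15 Gy against the matching control (horizontal axes, the same scale in both panels) for the 9 genes with counts, at day 6 (left) and day 2 (right). Squares are protons and circles photons; bars are 1 SE from the fit. At day 6 all 9 squares stand to the right of the circles, and at day 2 those of Ifi204, Zbp1, Ifih1, Dhx58, Adar and Tbk1 stand to the left; the test of the difference passed for Ifih1 at day 6 and for none of the others.

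Unirradiated organoids changed over the same days. Tlr3 was higher in controls at day 6 than at day 2, by 1.46 ± 0.33 in the proton series (adjusted p = 0.00202) and by 1.29 ± 0.17 in the photon series (SE, adjusted p = 1.4e-05) on the log2 scale. Over all genes, 8.28% and 6.25% were called higher between these controls. Samhd1 was lower at day 6, by -0.86 ± 0.17 in the proton series (adjusted p = 0.00075) and -0.48 ± 0.15 in the photon series (SE, adjusted p = 0.0349), against 9.15% and 8.48% of all genes called lower. Ifih1 was higher at day 6 in the photon series (0.57 ± 0.19, SE, adjusted p = 0.0493). The proton series gave -0.30 for Ifih1 (adjusted p = 0.417). The photon series call of Ifih1 was lost with DESeq2 (adjusted p = 0.05004) and without any 1 of 8 of the 12 libraries of the compared groups (all but mouse 3 of the day 6 control and mouse 1 of the other groups), with an adjusted p of up to 0.251. That of Samhd1 was lost with library size alone (adjusted p = 0.0780), with no filter (adjusted p = 0.112), and without day 2 control mouse 2 or 3, day 6 control mouse 3 or day 6 mouse 1 at 15 Gy (adjusted p up to 0.157). Mavs, at -0.70 in the proton series (adjusted p = 0.0578), passed without mouse 1 at 15 Gy of day 6 (adjusted p = 0.0226).

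The interferons themselves were nearly absent from the counts. Of 21 genes for type I and type III interferons and interferon gamma, 16 had no count in any library and the rest gave 18 counts over the 48 libraries, of which Ifnz had 9, Ifnb1 3, Ifnab 3, Ifna16 2 and Ifnl2 1. In 34 libraries the sum was 0, and the highest was 3 counts, or 1.02 CPM, in mouse 1 at 7 Gy of photons, day 6. By group, the sums after protons at day 6 were 1 count in controls, 0 at 4 Gy, 4 at 7 Gy and 1 at 15 Gy. For protons at day 2 they were 0, 1, 1 and 1 in the same order. After photons they were 0, 1, 3 and 0 at day 6 and 1, 2, 2 and 0 at day 2. No group had more than 4 interferon counts, and the groups at 15 Gy of photons, in which Ifih1 reached 88.5 to 117 CPM at day 6 and 87.3 to 99.8 CPM at day 2, had none. No interferon gene passed the filter on low counts, so none was tested. Brief or early production before day 2 was not sampled. How reads that match more than 1 gene were counted is not given, so interferon genes alike in sequence may be undercounted.

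**Figure D4:**
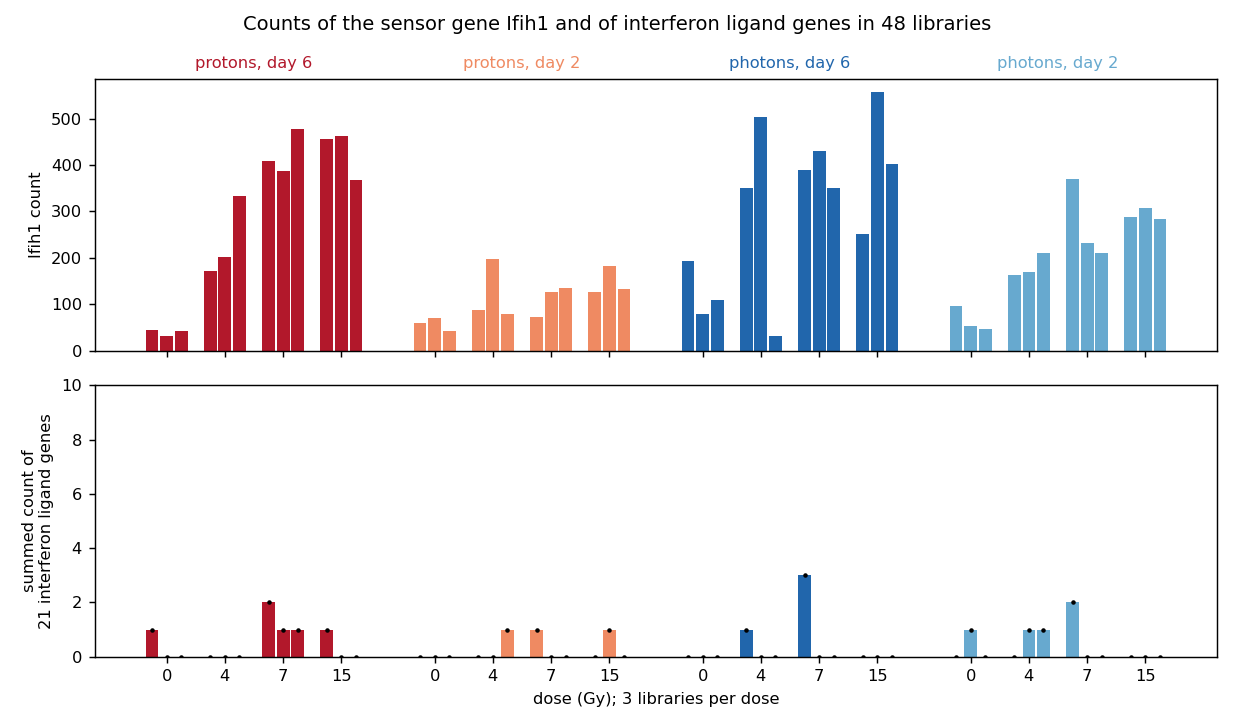
Raw counts of the sensor gene Ifih1 (upper panel) and summed raw counts of the 21 interferon genes (lower panel), one bar per library, 3 libraries at each dose in Gy, in the 4 sets. Ifih1 reaches 557 counts in an irradiated library, and the interferon sum lies between 0 and 3 counts in all 48 libraries; bars are not corrected for depth.

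Some markers of cell types differed from control in several sets. At day 2 the ranges of summed immune cell markers were apart from the controls at 15 Gy of protons and 7 Gy of photons. They overlapped the controls at the other doses of that day. In the set of protons the summed markers lay at 256 to 490 CPM in controls, 397 to 789 CPM at 4 Gy, 470 to 758 CPM at 7 Gy and 569 to 871 CPM at 15 Gy. In the set of photons they were below the controls at 7 Gy, with 62.3 to 149 CPM at 7 Gy, against 182 to 386 CPM in controls. S100a8 and S100a9 made up most of these sums, and Cd3e, Adgre1, Tyrobp and Ncr1 were at 0 in all libraries. Of 3 immune cell markers tested at day 2, S100a8 and S100a9 were called higher at 15 Gy of protons, against 3.94% of all genes. None was called at the other doses of protons or after photons at that day. The part of these markers in the sensor changes at day 2 was not tested. After protons at day 6 the list lay at 106 to 116 CPM at 15 Gy, against 80.2 to 158 CPM in controls, and in the photon sets the ranges at 15 Gy overlapped those of the controls, with 83.9 to 162 CPM at 15 Gy, against 117 to 246 CPM in controls at day 6, and 101 to 241 CPM at 15 Gy at day 2. Of 16 epithelial markers, 12 were tested at day 6. At 15 Gy of protons, day 6, Krt8 and Krt18, keratins of simple epithelium, were called higher, and Krt5, Krt14 and Trp63, which mark basal cells, Krt19 and Aqp5 were called lower; at 7 Gy the calls were Krt8 and Krt18 higher and Krt5, Krt14 and Trp63 lower. At 15 Gy of photons, day 6, Krt14, Trp63 and Aqp5 were called lower. Over all genes at 15 Gy and day 6, 11.0% were called higher and 13.2% lower after protons, and 2.52% and 2.77% after photons. At 15 Gy and day 2, of 13 tested, Trp63 and Aqp5 were called lower after protons and Sox9 higher after photons. At lower doses of day 2, Aqp5 was called lower at 4 Gy and Trp63 at 7 Gy of protons. Sox9 was called higher at 7 Gy of photons. Over all genes, 2.57% and 1.56% were called higher at 15 and 7 Gy of photons, day 2. Summed fibroblast markers at day 6 of photons lay at 13 to 35.9 CPM in controls, 3.18 to 6.91 CPM at 4 Gy, 3.73 to 10.7 CPM at 7 Gy and 4.64 to 13.6 CPM at 15 Gy. The 3.18 CPM was 1 count in the shallow library of mouse 3. Postn held 470 of the list's 693 counts over the 48 libraries. It was the 1 gene of the list tested in this set, and was called lower at 7 Gy (log2 fold change -1.95) but not at 4 or 15 Gy. Summed epithelial markers at day 6 lay at 7871 to 9481 CPM at 15 Gy of protons, against 9720 to 10180.5 CPM in their controls, and at 7383 to 8040.5 CPM at 15 Gy of photons, against 9102 to 9355 CPM in their controls. The part of these epithelial and fibroblast markers in the sensor changes was not tested.

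Of 102 other genes of nucleic acid sensing in the files, 11 were called higher in at least 6 of the 12 comparisons with control, and none was called lower that often. Among DNA-binding PYHIN proteins, relatives of Ifi204, these were Ifi203, Ifi205, Ifi207, Ifi211 and Mndal. Not all of the 102 passed the filter on low counts and were tested. The share of all genes called higher in at least 6 comparisons was not counted. In single comparisons with control it ran from 0.534% to 11.0% of genes tested. At 15 Gy of protons, day 6, Mndal averaged 304 CPM, against 14.9 CPM in controls (log2 fold change 4.20 ± 0.27, SE). Reads of PYHIN genes, which are close copies of each other, may be split between them, so the values of Ifi204 and its relatives are uncertain in this respect.

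Among RNA-binding proteins these were Ddx58 (RIG-I), which shares the adaptor Mavs with Ifih1, Eif2ak2, a kinase that stops translation on double-stranded RNA, Ddx60, a helicase, Trim25, a ubiquitin ligase of the RIG-I pathway, and Zc3hav1, which binds RNA rich in CpG. Ddx58 at 15 Gy averaged 169 CPM after protons at day 6, against 30 CPM in controls (2.35 ± 0.17, SE), and 131 CPM after photons at day 6, against 41.6 CPM in controls (1.62 ± 0.23, SE). Irf7, a transcription factor of interferon genes, was called in all 12 comparisons, with 222 CPM at 15 Gy of protons, day 6, against 13.5 CPM in controls (3.89 ± 0.18, SE). At 15 Gy of protons, day 6, the other DNA sensing genes gave 10 higher and 1 lower of 17 tested, the RNA sensing genes 6 higher and 2 lower of 20, the adaptors and kinases 5 higher and 1 lower of 24, and the clearing enzymes 6 higher and 5 lower of 22, against 11.0% of all genes called higher and 13.2% called lower. At 15 Gy of photons, day 6, the DNA sensing genes gave 7 higher and 0 lower of 16 tested, the RNA sensing genes 5 and 0 of 20, the adaptors and kinases 3 and 0 of 24, and the clearing enzymes 1 and 1 of 22, against 2.52% of all genes called higher and 2.77% called lower. The genes that follow were named after their values were seen, as textbook parts of the pathway. Cgas, the cytosolic DNA sensor, averaged between 8.69 and 16.8 CPM in each group and was called in none of the 12 comparisons. Its partner Tmem173 (STING) was called once, lower, at 15 Gy of protons, day 2, with 12.4 ± 2.61 CPM, against 21.9 ± 1.87 CPM in controls (SD, n = 3 each; log2 fold change -0.85, adjusted p = 0.0142). Tlr9 had no count and Tlr7 had 6 counts over the 48 libraries. Aim2, another cytosolic DNA sensor, had 157 counts. After protons at day 6 it averaged 0.297 CPM in controls and 1.11, 2.88 and 1.37 CPM at 4, 7 and 15 Gy. After photons at day 6 it averaged 0.215, 0.887, 1.52 and 1.07 CPM in the same order. At day 2 the averages were 0.329, 0.356, 0.434 and 0.686 CPM after protons, and 1.16, 0.374, 1.61 and 1.70 CPM after photons. No test result for Aim2 is given here.

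The sensors moved together from library to library. After the mean of the 12 libraries of each set was taken from log2 CPM, Pearson's r over the 48 libraries was 0.929 between Ifi204 and Ifih1, 0.927 between Ifih1 and Zbp1, 0.912 between Dhx58 and Zbp1 and 0.911 between Dhx58 and Adar. Tlr3 gave 0.777 to 0.853 with Ifi204, Zbp1, Ifih1, Dhx58 and Adar. With Ifi204, Zbp1, Tlr3, Ifih1, Dhx58 and Adar, Samhd1 gave 0.572 to 0.712, Tbk1 0.376 to 0.573 and Mavs 0.311 to 0.439. Mavs and Tbk1 gave 0.248 with each other. These are descriptions over libraries that share doses, depth and controls. Among 9819 genes with a symbol and a mean of at least 5 CPM, those most like Ifih1 were Phf11d (0.974), Ifit3 (0.973) and Rsad2 (0.970). Those most like Ifi204 were Ifit3 (0.963), Mndal (0.959) and Lgals9 (0.950), and those most like Zbp1 were Ifit3 (0.957), Ifi203 (0.957) and Ifi211 (0.955). For Dhx58 they were Ifi44 (0.953), Dtx3l (0.949) and Oasl2 (0.947), for Tlr3 Rsad2 (0.875), Gria3 (0.872) and Cmpk2 (0.863), and for Adar Parp12 (0.947), Iigp1 (0.937) and Ccng1 (0.927). The genes nearest to Samhd1 (Ltbp1, 0.807), Mavs (Vars, 0.769) and Tbk1 (Il10rb, 0.741) were less like them.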

How the data were processed

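The 48 libraries were put into 16 groups of 3 by their titles. The authors deposited raw counts per gene, and their CPM tables were not used. GRCm39 and edgeR are named per the submitters' processing notes. How reads were aligned and counted, and with which annotation and strand setting, is not given in the sources used here. Of each file, 5 summary lines were left out, and 7.88 to 12.1% of reads fell outside genes.

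edgeR 4.0.16 (R 4.3.3) was run with TMM scaling, filterByExpr and the quasi-likelihood F test, and p-values were adjusted by Benjamini-Hochberg over all genes tested, with calls under 0.05. A separate fit used the 12 libraries of a radiation type and day. Genes tested were 10810 (protons, day 6), 10529 (protons, day 2), 11308 (photons, day 6) and 11039 (photons, day 2). Fits of 24 libraries gave the differences between types, days and controls, for 22 comparisons in all. The SE was taken from the log2 fold change and F. Levels in CPM are counts per 1000000 gene counts, without the TMM factors, and ranges of libraries were compared on these levels. Alternatives were DESeq2 1.42.0, library size alone, no filter, mice as blocks, and each library left out in turn, in the larger fits only those of the groups compared.

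Libraries of the same number share a mouse per the titles. For the sets in the order above, their deviations from group means correlated on average by -0.0268, 0.0809, 0.0769 and 0.0783, against 0.0133, -0.0398, -0.0363 and -0.0411 between other libraries. No replicates agreed within sampling noise. P-values rest on the spread between the mice within groups, pooled over all groups of a fit and drawn toward that of other genes. The main fits held no term for the mouse.

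The genes and lists were chosen with earlier results of these data known, and the promoter motif after the data were seen. All 10 genes were described in each comparison, other pathway genes by name where called in at least 6 of the 12 comparisons with control, and for each gene the 3 most correlated genes (mean at least 5 CPM, prior count 2). Intervals of ratios and limits of 3 counts cover counting error only. Promoters are from RefSeq (GRCm38.p6).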

Additional observations from a re-analysis of the deposited data

Results flagged for a closer look

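A few of the genes passed a test of the difference between their changes in different settings. For Ifih1 the change at 15 Gy at day 6 was larger after protons than after photons by 1.26 on the log2 scale (adjusted p = 0.00929), a call lost without photon control mouse 1 (adjusted p = 0.0501). The day 6 controls also differed, with 19.5 ± 1.69 CPM in the proton and 36.0 ± 6.25 CPM in the photon set. At 15 Gy these sets had 144 ± 18.9 and 105 ± 14.7 CPM (SD, n = 3 each). For protons the change at 15 Gy was larger at day 6 than at day 2 by 1.69 for Ifih1 (adjusted p = 0.00177), 1.15 for Ifi204 (adjusted p = 0.0465) and 0.92 for Samhd1 (adjusted p = 0.0304). With each library of the compared groups left out, the call of Ifi204 held in 2 of 12 fits and that of Samhd1 in 4 of 12. In the case of Samhd1, the controls differed between the days as well, with 28.3 ± 2.97 CPM at day 6 and 52 ± 1.89 CPM at day 2 (SD, n = 3 each).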

How the results depend on the processing

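Of 3168 values of the 9 genes under the alternatives, 0 reversed a called direction. With 1 library left out, the number of the 9 genes called ranged as follows. For protons at day 6 it was 5 to 6 at 4 Gy, 7 to 8 at 7 Gy and 7 to 8 at 15 Gy, and 1 to 5 for 15 Gy against 4 Gy. For protons at day 2 it was 0 to 3, 3 to 5 and 4 to 6. For photons at day 6 it was 3 to 5 at 4 Gy and 6 at both other doses. For photons at day 2 it was 0 to 2, 3 to 6 and 6, and 0 to 2 for 15 Gy against 4 Gy. For proton against photon changes at day 6 it was 0 to 3, for day 6 against day 2 in protons 1 to 3, and between controls 2 to 3 in the proton and 1 to 3 in the photon series.

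The count at 4 Gy of photons, day 2, was 2, and became 5 with no filter on low counts and 1 with mice as blocks (replicate block). For 15 Gy against 4 Gy of photons, day 2, it was 1, and became 2 with DESeq2, 0 with library size alone and 4 with no filter. The block changed 5 calls of the 9 genes, given with those genes, and no other call.

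Counts over all genes moved by more than 1.5 times as follows. Without the filter, and against control, they were 264 (73 with it) at 4 Gy, 873 (298) at 7 Gy and 1064 (547) at 15 Gy of photons, day 2; 367 (139), 566 (295) and 991 (598) at day 6; 246 (111) and 479 (310) at 4 and 7 Gy of protons, day 2; and 340 (169) at 4 Gy of protons, day 6. With DESeq2 they were 118 and 451 at 4 and 7 Gy of photons, day 2, and with the block 197 at 4 Gy of protons, day 2. For 15 Gy against 4 Gy, photons at day 2 gave 29, with DESeq2 75, library size 7 and no filter 453. Photons at day 6 gave 16, with DESeq2 54 and no filter 269. Protons at day 2 gave 13, with DESeq2 47, library size 26, no filter 140 and the block 61. Protons at day 6 gave 724, with no filter 1198. The type difference gave 0 at day 2, with DESeq2 4, no filter 122 and the block 58, and 499 at day 6, with no filter 904. The day difference gave 12 for photons, with DESeq2 45 and no filter 145, and 295 for protons, with DESeq2 514 and no filter 631.

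With 1 library left out, counts over all genes, on which the shares given as background rest, ran from 23 to 172, 132 to 685 and 252 to 1292 at 4, 7 and 15 Gy of photons, day 2, and from 63 to 189, 166 to 495 and 271 to 1025 at day 6. For protons they ran from 51 to 177, 128 to 436 and 438 to 1206 at day 2 and from 103 to 251, 679 to 1680 and 1769 to 3128 at day 6. The type difference at day 6 ran from 41 to 1254, the day difference of protons from 94 to 590, and 15 Gy against 4 Gy of protons, day 6, from 225 to 1515.

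With library size alone the median of all genes shifted by over 0.1 at 4, 7 and 15 Gy of protons, day 6, to 0.10, 0.19 and 0.14 on the log2 scale, and called genes were 181 higher and 27 lower, 1400 and 380, and 1947 and 925, against 122 and 47, 594 and 713, and 1184 and 1427 with TMM. Depth limits Zbp1 and Dhx58 in controls and the interferon genes.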
